A study of Mus musculus with 6 samples.

Results

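The contractile genes of smooth muscle and myofibroblasts described here are 10 genes picked by name from the deposited expression table: Acta2, Actg2, Tagln, Cnn1, Myh11, Myl9, Tpm1, Tpm2, Lmod1 and Myocd. All 10 were found once among its 53460 rows, and none had been set aside by the authors for holding too many fragments. RNA came from slowly adherent cardiac mesenchymal cells, stromal cells cultured from the heart, of C57BL6/J mice. There were 3 infarct libraries, from hearts subjected to 60 min of ischemia and then reperfused for 28 days, and 3 sham libraries, from mice of the same cohort whose chests were opened without an infarction. The titles mark all 6 samples as SA and P4. No genetic change or drug is given for either group. Nothing in the labels ties a library to its own mouse or culture, so the p-values below rest on a spread that could be technical. Levels are in FPKM, fragments scaled to transcript length and to library size, so levels of different genes can be set side by side.

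Smooth muscle shortens when myosin pulls on actin filaments, and the proteins of this apparatus are made from genes that serum response factor (SRF) and its partner myocardin switch on through a DNA element called the CArG box. Fibroblasts that take on a contractile state, called myofibroblasts, make smooth muscle actin and several of the same proteins without becoming smooth muscle. In them the myocardin-related factors MRTF-A and MRTF-B are the best known partners of SRF. After infarction, myofibroblasts build and pull together the scar.

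Stromal markers were abundant in these libraries (Col1a1 at 749 to 1041 FPKM in infarct and 650 to 870 FPKM in sham libraries). Of the 10 stromal markers tested none was called by limma. The groups did not overlap for 2 of them, both with infarct below, where this held for 4.1% of all tested genes. These were Dcn, at 13.7 to 18.4 FPKM in infarct and 18.45 to 34.4 FPKM in sham libraries, and Thy1, at 196 to 264 FPKM in infarct and 279 to 309 FPKM in sham libraries. The authors' deposited table gives Dcn a q of 0.0289 and Thy1 a q of 0.706. Markers of working muscle were mostly low. Of the 15 cardiomyocyte markers 13 stayed under 1 FPKM in every library, and Myh6, Nppa and Myl7 were listed at 0 throughout. The list summed to 16.4 to 23.6 FPKM in infarct and 19.9 to 56.2 FPKM in sham libraries, nearly all of it from Tnnt2, which encodes cardiac troponin T. Tnnt2 was at 14.3, 15.1 and 20.4 FPKM in infarct libraries 1 to 3, against 21.3, 16.7 and 53.2 FPKM in sham libraries 1 to 3, and the authors' deposited table gives it a q of 0.00695. The part of these cells' RNA in the results below was not tested. Of the 10 skeletal muscle markers 8 stayed under 1 FPKM, and the list summed to 2.503 to 3.02 FPKM in infarct and 2.54 to 3.57 FPKM in sham libraries. Endothelial markers moved with the groups, and 11 of 12 were measurable at the level needed for the test. All 11 lay lower in infarct libraries without overlap, where 4.1% of all tested genes did. Limma called 1 of them, Mmrn2, at an adjusted p of 0.0329. The authors' deposited table gives 9 of the 12 a q under 0.05, all lower in infarct libraries. It gives such a q to 247 of the 14922 genes it tested, 70 of them higher in infarct libraries. The list summed to 11.3 to 28.0 FPKM in infarct and 97.7 to 400.6 FPKM in sham libraries. The sex-linked genes went against the labels, which call the mice male. Xist, the RNA that silences an X chromosome in female cells, was at 63.1 to 89.9 FPKM in infarct and 102 to 111 FPKM in sham libraries. The Y-linked gene Ddx3y was at 0.451 to 6.07 FPKM in infarct and 0.0547 to 0.105 FPKM in sham libraries. All 4 Y-linked genes looked at lay higher in infarct libraries without overlap, where 3.71% of all tested genes did. None of these 4 reached the level needed for the limma test. The authors' deposited table gives each a q of 0.00178, where 0.469% of its tested genes were marked higher. Xist lay lower in infarct libraries without overlap, where 4.1% of all tested genes did. Xist was present in all 6 libraries, so none could be left out on this ground. The part of sex-linked and endothelial RNA in the results below was not tested. In such bulk RNA, fewer cells of a type and less RNA per cell cannot be told apart.

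Promoter windows of 6 of the 10 genes were found in RefSeq, each reaching from 250 bases before to 50 bases after the annotated start, on GRCm38.p6. Those of Acta2, Myl9 and Cnn1 are shown here on the strand of the gene, 5′ to 3′. Acta2 is the most abundant of the 10. Of the 8 contractile genes tested below, Myl9 and Cnn1 are among the 3 with the largest differences in mean log2(FPKM + 1). Acta2 (minus strand) covers chr19:34255324-34255623, Myl9 (plus strand) chr2:156775214-156775513 and Cnn1 (plus strand) chr9:22099003-22099302. Capitals mark the CArG box, the CArG box with 1 of its 6 inner bases changed to G or C, and the MCAT element, the short site of TEAD factors.
Acta2: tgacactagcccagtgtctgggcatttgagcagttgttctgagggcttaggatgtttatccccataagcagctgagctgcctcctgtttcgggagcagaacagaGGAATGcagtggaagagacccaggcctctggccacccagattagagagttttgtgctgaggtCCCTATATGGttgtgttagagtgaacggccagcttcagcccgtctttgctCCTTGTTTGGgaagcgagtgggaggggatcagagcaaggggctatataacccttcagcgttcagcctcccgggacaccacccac
Myl9: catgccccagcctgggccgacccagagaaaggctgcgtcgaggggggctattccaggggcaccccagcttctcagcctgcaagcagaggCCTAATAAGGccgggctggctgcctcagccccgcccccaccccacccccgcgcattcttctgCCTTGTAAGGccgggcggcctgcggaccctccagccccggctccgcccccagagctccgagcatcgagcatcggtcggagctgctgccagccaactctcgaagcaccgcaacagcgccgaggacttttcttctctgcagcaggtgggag
Cnn1: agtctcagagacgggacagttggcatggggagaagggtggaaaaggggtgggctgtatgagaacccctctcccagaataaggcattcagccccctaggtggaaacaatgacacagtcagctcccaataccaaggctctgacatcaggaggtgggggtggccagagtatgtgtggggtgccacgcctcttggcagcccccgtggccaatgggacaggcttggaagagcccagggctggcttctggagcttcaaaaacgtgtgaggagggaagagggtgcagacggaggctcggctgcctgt

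The Myl9 window held 1 full CArG box, CCTAATAAGG, 161 to 152 bases before the start, and 1 with a changed inner base, CCTTGTAAGG, 99 to 90 bases before it. The Acta2 window held 2 with a changed inner base, CCCTATATGG at 84 to 75 bases and CCTTGTTTGG at 34 to 25 bases before the start. It also held the MCAT element, searched as CATTCC on both strands, at 146 to 141 bases. The Cnn1 and Tpm2 windows held none of these, and those of Lmod1 and Tpm1 held 1 MCAT element each. Among all 32851 promoter windows, 1.63% held a full CArG box, 8.5% the form with 1 changed base and 14.7% the MCAT element. In the windows shown no match overlapped another, and a full CArG box was not counted again in the changed form. The MCAT match of Acta2 is on the other strand and reads GGAATG here. These are matches of letters in a short window, and they say nothing of binding.

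The 10 genes spanned a wide range of levels, and the 5 most abundant stood in the same order in either group. Acta2, Tagln, Tpm1, Tpm2 and Myl9 formed an abundant set. Cnn1, Lmod1 and Actg2 were at a few FPKM. Myh11 and Myocd were below 1 FPKM in nearly all libraries.

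Acta2 (chromosome 19, 34241090 to 34255590, minus strand, 9 exons in the longest transcript) encodes smooth muscle alpha-actin, the classic marker of myofibroblasts. It was at 333.9, 514.8 and 515.6 FPKM in infarct libraries 1 to 3, against 321, 468.8 and 396.6 FPKM in sham libraries 1 to 3. The groups overlapped, with infarct library 1 next to the lowest sham library. The means were 455 ± 105 FPKM in infarct and 395.5 ± 73.9 FPKM in sham libraries (SD, n = 3 each), and Acta2 ranked first of the 10 in both.

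Actg2 (chromosome 6, 83512905 to 83536265, minus strand) encodes smooth muscle gamma-actin, the form known from gut, bladder and other visceral muscle. It was at 4.95, 13.1 and 5.66 FPKM in infarct libraries 1 to 3, against 1.34, 3.68 and 2.45 FPKM in sham libraries 1 to 3. Every infarct library lay above every sham library, and infarct library 2 stood above the other 2. At the depth implied by the table these levels stand for about 157, 358 and 173 fragments in infarct and 40, 118 and 93 fragments in sham libraries. The mean of 7.91 ± 4.52 FPKM in infarct libraries was 3.17 times the 2.49 ± 1.17 FPKM in sham libraries.

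**Figure D1:**
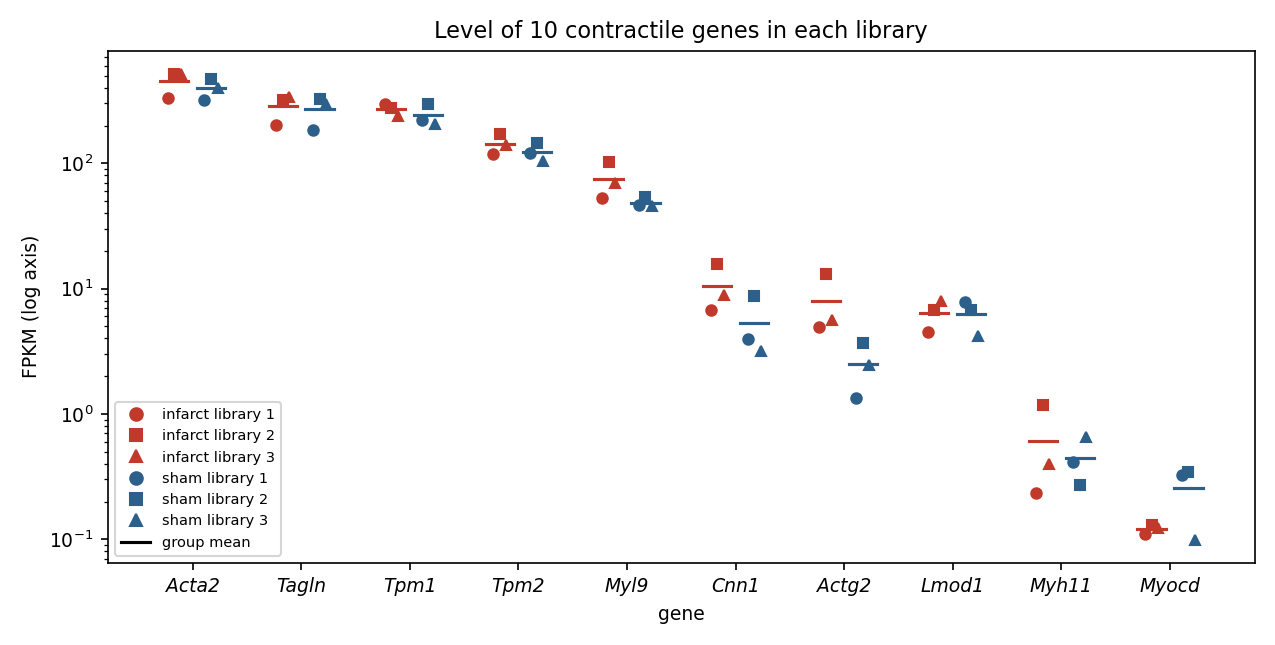
Level of each of the 10 contractile genes in FPKM on a log axis, ordered by the infarct mean, with infarct libraries in red left of sham libraries in blue. Symbols are the 3 libraries of a group and bars the group means. Acta2 lies above 300 FPKM and Myocd below 0.4 FPKM in all 6 libraries, and Actg2 is the gene whose groups do not overlap.

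The actin-binding proteins differed from each other in level. Tagln (chromosome 9, 45929619 to 45936058, minus strand) encodes transgelin, or SM22, an early marker of the smooth muscle lineage that stabilises actin bundles. It was at 203, 319 and 338 FPKM in infarct libraries 1 to 3, against 184, 323 and 299.6 FPKM in sham libraries 1 to 3. The groups overlapped over nearly their whole range. The table lists Tagln under a merged locus 15.1 times as long as the gene. The annotated span of Tagln itself overlaps Pcsk7 and an antisense transcript on the other strand. Other genes within the merged locus were not looked up. The authors' use of strand in counting is not given in the sources used here, so which reads of this locus belong to Tagln is uncertain, to an extent that was not measured.

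Cnn1 (chromosome 9, 22099216 to 22109630, plus strand) encodes calponin 1, which restrains the myosin motor on actin and marks differentiated smooth muscle. It was at 6.801, 15.7 and 8.88 FPKM in infarct libraries 1 to 3, against 3.98, 8.74 and 3.21 FPKM in sham libraries 1 to 3. Infarct libraries 2 and 3 lay above all sham libraries, and infarct library 1 lay below sham library 2. The means were 10.5 ± 4.65 FPKM in infarct and 5.31 ± 3.00 FPKM in sham libraries, a ratio of 1.97.

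The myosin genes lay far apart. Myl9 (chromosome 2, 156775420 to 156781658, plus strand) encodes the regulatory light chain that is phosphorylated to start contraction. It was at 53.1, 103 and 69.5 FPKM in infarct libraries 1 to 3, against 46.6, 53.4 and 45.6 FPKM in sham libraries 1 to 3. The sham libraries were tightly grouped, and infarct library 1 fell just under the highest of them. The means were 75.2 ± 25.4 FPKM in infarct and 48.5 ± 4.24 FPKM in sham libraries, a ratio of 1.55.

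Myh11 (chromosome 16, 14194535 to 14291372, minus strand) encodes the smooth muscle myosin heavy chain, the most specific marker of mature smooth muscle. It was at 0.234, 1.18 and 0.400 FPKM in infarct libraries 1 to 3, against 0.410, 0.271 and 0.656 FPKM in sham libraries 1 to 3. The groups overlapped, and the single value above 1 FPKM was in infarct library 2. With a longest transcript of 6549 nt, these levels imply 37 to 158 fragments in infarct and 42 to 122 fragments in sham libraries. Per 100 FPKM of Acta2, Myh11 stood at 0.0702, 0.228 and 0.0775 FPKM in infarct libraries 1 to 3, against 0.128, 0.0578 and 0.166 FPKM in sham libraries 1 to 3.

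The tropomyosins lie along the actin filament and control access of myosin to it. Tpm1 (chromosome 9, 67022590 to 67049406, minus strand) was at 298.9, 276 and 237 FPKM in infarct libraries 1 to 3, against 219.7, 298.6 and 206 FPKM in sham libraries 1 to 3. Tpm2 (chromosome 4, 43514711 to 43523765, minus strand) was at 118, 173 and 140 FPKM in infarct libraries 1 to 3, against 122, 145 and 105 FPKM in sham libraries 1 to 3. For both, the groups overlapped. The highest infarct library was library 1 for Tpm1 and library 2 for Tpm2, and the highest sham library was library 2 for both. Tpm1 has 21 annotated transcripts, among them muscle and non-muscle forms, and the gene-level values do not separate these.

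Lmod1 (chromosome 1, 135324807 to 135368065, plus strand) encodes leiomodin 1, which nucleates actin filaments in smooth muscle. It was at 4.55, 6.77 and 7.90 FPKM in infarct libraries 1 to 3, against 7.87, 6.71 and 4.22 FPKM in sham libraries 1 to 3. The ranges were almost the same, with means of 6.40 ± 1.71 FPKM in infarct and 6.27 ± 1.87 FPKM in sham libraries.

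Myocd (chromosome 11, 65176561 to 65269989, minus strand) encodes myocardin, the SRF partner restricted to smooth and cardiac muscle. It was at 0.110, 0.129 and 0.122 FPKM in infarct libraries 1 to 3, against 0.323, 0.345 and 0.0994 FPKM in sham libraries 1 to 3. These levels imply 13 to 14 fragments in infarct and 14 to 42 fragments in sham libraries, so counting error alone is large. Sham libraries 1 and 2 lay above the infarct libraries and sham library 3 below them.

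Most of these genes have relatives that do the same work in non-muscle cells, and the share within a family does not depend on library size. These shares were worked out after the values were seen and carry no test. Acta2 made up 7.70%, 11.2% and 12.2% of the summed FPKM of the 6 actin genes in infarct libraries 1 to 3, against 8.40%, 9.29% and 10.8% in sham libraries 1 to 3. The cytoplasmic actin gene Actb supplied most of the rest, at 3152 ± 169 FPKM in infarct and 3045 ± 603 FPKM in sham libraries. The muscle actins Acta1 and Actc1 stayed under 1 FPKM in every library. The share of Actg2 was 0.114%, 0.285% and 0.134% in infarct libraries 1 to 3, against 0.0350%, 0.0730% and 0.0666% in sham libraries 1 to 3, without overlap.

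Tagln supplied 40.2% to 56.0% of the FPKM of the transgelins in infarct and 42.4% to 53.9% in sham libraries, with Tagln2 as its main relative. Cnn1 supplied 2.16% to 4.40% of the calponins in infarct and 1.10% to 2.71% in sham libraries, behind Cnn2 and Cnn3, the calponins of non-muscle cells. Myh11 supplied 0.0609% to 0.301% of the conventional myosin heavy chains in infarct and 0.0609% to 0.196% in sham libraries, where Myh9 stood at 343 ± 5.43 FPKM in infarct and 340.5 ± 52.6 FPKM in sham libraries. Tpm1 supplied 23.4% to 29.96% of the tropomyosins in infarct and 22.5% to 26.7% in sham libraries, and Tpm2 11.8% to 15.4% in infarct and 11.5% to 13.0% in sham libraries.

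Myl9 supplied 8.90%, 11.6% and 8.07% of the regulatory light chains in infarct libraries 1 to 3, against 6.34%, 7.64% and 5.11% in sham libraries 1 to 3. These shares did not overlap between the groups, whereas the level of Myl9 itself did. The relatives Myl12a and Myl12b stood at 604 ± 125 and 102 ± 16.7 FPKM in infarct and 617 ± 88.2 and 109.5 ± 18.2 FPKM in sham libraries. Myocd supplied 0.272% to 0.318% of its family in infarct and 0.284% to 0.851% in sham libraries, the rest coming from Mkl1 and Mkl2, which encode MRTF-A and MRTF-B. Of the leiomodins, Lmod2 was listed at 0 in all libraries, and Lmod1 supplied at least 99.7% of the FPKM. That share does not set Lmod1 against a non-muscle form.

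**Figure D2:**
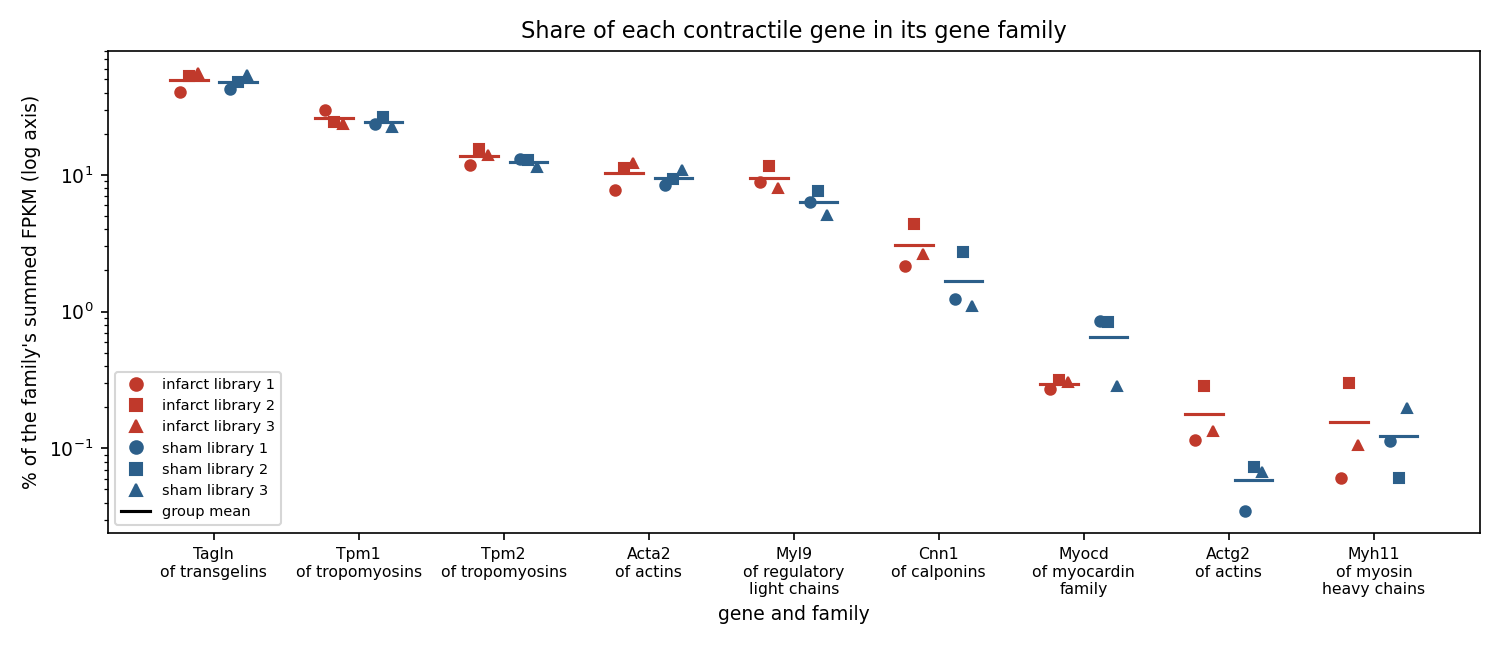
Share of each contractile gene in the summed FPKM of its gene family, in percent on a log axis, with infarct libraries in red left of sham libraries in blue, symbols for the 3 libraries and bars for the group means. Lmod1, at 99.7% or more of the leiomodins, is left out. Actg2 among the actins and Myl9 among the regulatory light chains are the genes whose groups do not overlap.

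Close relatives can exchange reads, and the sequence they share was examined in the GENCODE M21 transcripts. The coding sequences of Actg2 and Acta2 were identical at 84.4% of aligned bases, and those of Myl9 and Myl12a at 85.5%. No stretch of 150 bases, the length of 1 read, was shared between the longest coding transcript of Actg2 and any transcript of the other 5 actin genes, and the longest shared run with Acta2 was 29 bases. For Myl9 the longest run shared with Myl12a or Myl12b was 35 bases, and for Myh11 the longest shared with Myh9 or Myh10 was 65 bases. Only exact matches were counted, so trimmed reads or reads aligned with mismatches are not covered. Whether reads were exchanged was not tested. Relative to 100 FPKM of Acta2, Actg2 stood at 1.48, 2.55 and 1.097 FPKM in infarct libraries 1 to 3, against 0.417, 0.786 and 0.618 FPKM in sham libraries 1 to 3.

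The infarct and sham libraries were compared with limma on log2(FPKM + 1) over the 12720 genes that reached 1 FPKM in 3 or more libraries. Of the 10 contractile genes 8 passed this filter, and Myh11 and Myocd did not. None of the 8 was called at an adjusted p under 0.05, where the test called 3 of the 12720 genes (0.0236%). All 8 had a positive difference, with a median of 0.20 on the log2 scale, where the median of all tested genes was 0.02 and 7028 of 12720 were positive. The mitosis list, fitted alike, also had 8 of 8 positive, with a median of 0.27. Without infarct library 1 the median of the contractile genes was 0.37, without sham library 2 it was 0.33 and without infarct library 2 it was 0.12. At an unadjusted p under 0.05, 2 of the 8 lay higher in infarct libraries, Actg2 and Myl9, where 1.29% of all genes did. Myl9 missed this level in 7 of 14 alternatives, namely no filter, median scaling and leaving out any library but infarct library 1, whereas Actg2 missed it in none of the 13 in which it was tested. The groups did not overlap for 1 of the 8, Actg2, with infarct above, where this held for 3.71% of all genes. None had infarct below sham without overlap, where this held for 4.1% of all genes. With 8 genes that share libraries, these counts are a description of the group.

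Actg2 had the largest difference of the 8, 1.30 on the log2(FPKM + 1) scale with an SE of 0.38 and a 95% interval of 0.39 to 2.21. Its unadjusted p was 0.0121 and its adjusted p 0.963 by limma with Benjamini-Hochberg adjustment. An exact two-sided permutation test gave p = 0.1 for Actg2, which is the smallest that 3 libraries against 3 allow. Cnn1 followed with 0.89 (interval -0.03 to 1.80) and Myl9 with 0.57 (interval 0.03 to 1.11). For Acta2 the difference was 0.19 (interval -0.32 to 0.70), for Tpm2 0.21 (interval -0.20 to 0.62) and for Tpm1 0.18 (interval -0.21 to 0.57). Tagln at 0.10 (interval -0.55 to 0.75) and Lmod1 at 0.03 (interval -0.56 to 0.63) were nearest to no difference. On leaving out 1 library, Acta2 ran from 0.05 without sham library 1 to 0.40 without infarct library 1, Tpm2 from 0.07 without infarct library 2 to 0.34 without infarct library 1, and Tpm1 from 0.07 without sham library 3 to 0.34 without sham library 2. These intervals leave room for a change of either sign in 6 of the 8 genes. The adjusted p of the 7 genes other than Actg2 was 1.00.

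**Figure D3:**
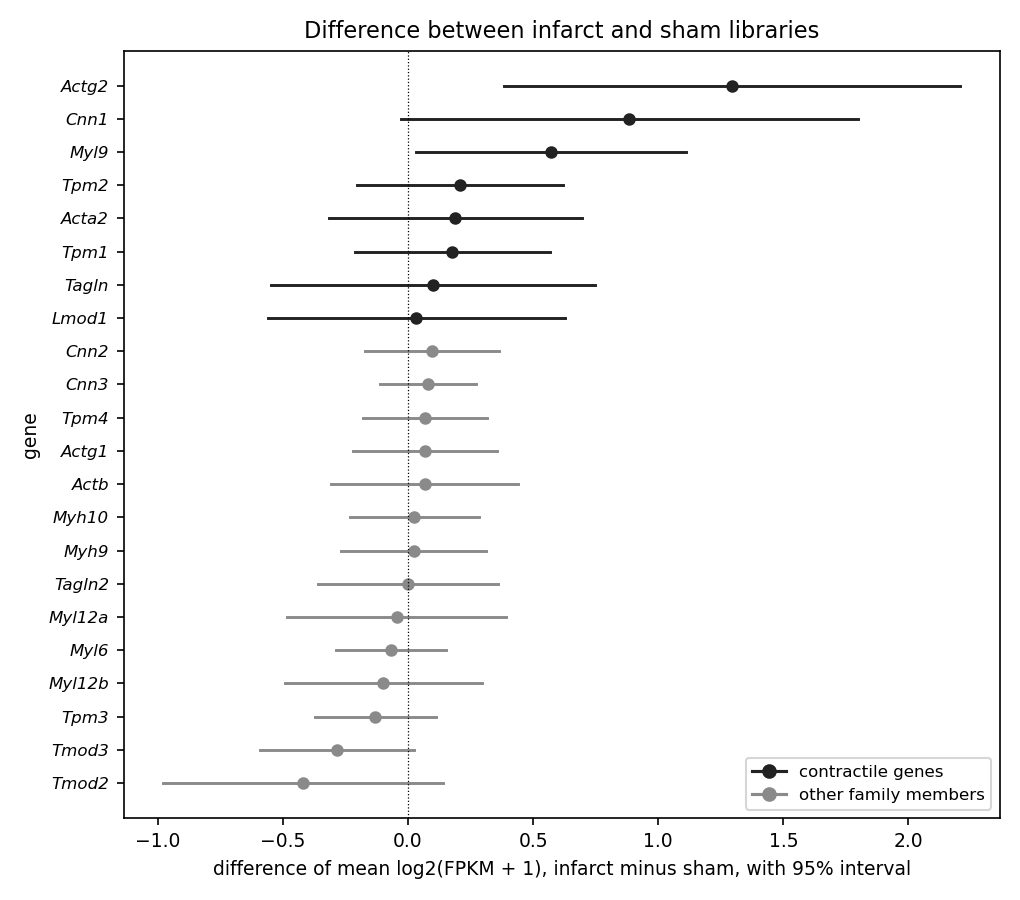
Difference between infarct and sham libraries in mean log2(FPKM + 1) with its 95% interval from limma, for the 8 contractile genes that passed the filter in black and 14 relatives from their families in grey. The intervals of Actg2 and Myl9 lie above 0, that of Cnn1 just includes it, and none of the 22 genes passed the test after adjustment.

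The authors' deposited table gives another count. It marks 2 of the 9 contractile genes it tested as changed, Actg2 with a q of 0.00178 and Myl9 with a q of 0.0210, both higher in infarct libraries, where 0.469% of the 14922 genes it tested were marked higher. In the authors' deposited table Cnn1 had a p of 0.0222 and a q of 0.207, Myh11 a q of 0.820 and Acta2 a q of 0.896. Myocd was not tested there. The limma fit called neither Actg2 nor Myl9.

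Of the 8 tested genes, the 3 with the largest log2 differences all had their highest value in infarct library 2. That library held the highest value of 5 of the 10 genes, Actg2, Cnn1, Myl9, Tpm2 and Myh11, and infarct library 3 that of 3. Sham library 3 held the lowest value of 6 and sham library 1 that of 3. Summed over the 10 genes, the level was 1023, 1423 and 1324 FPKM in infarct libraries 1 to 3, against 906.6, 1309 and 1063 FPKM in sham libraries 1 to 3. Without infarct library 2, the difference of Myl9 was 0.32 and that of Cnn1 0.58, while Actg2 was at 0.91 and its groups still did not overlap. The libraries with the most mitotic RNA stood at opposite ends of their groups: infarct library 1 was the lowest infarct library for 7 of the 8 tested genes, and sham library 2 the highest sham library for 7 of the 8. The mitosis list summed to 309, 138 and 162 FPKM in infarct libraries 1 to 3, against 142, 269 and 101 FPKM in sham libraries 1 to 3. Infarct library 1 and sham library 2 also had the highest endothelial sums of their groups, at 28.0 and 400.6 FPKM. Their stromal sums were the lowest of their groups, at 3422 and 3371 FPKM. Infarct library 1 also held the most RNA of the Y-linked gene Ddx3y, at 6.07 FPKM. The part of cell cycling, or of these other contents, in the spread of the contractile genes was not tested.

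**Figure D4:**
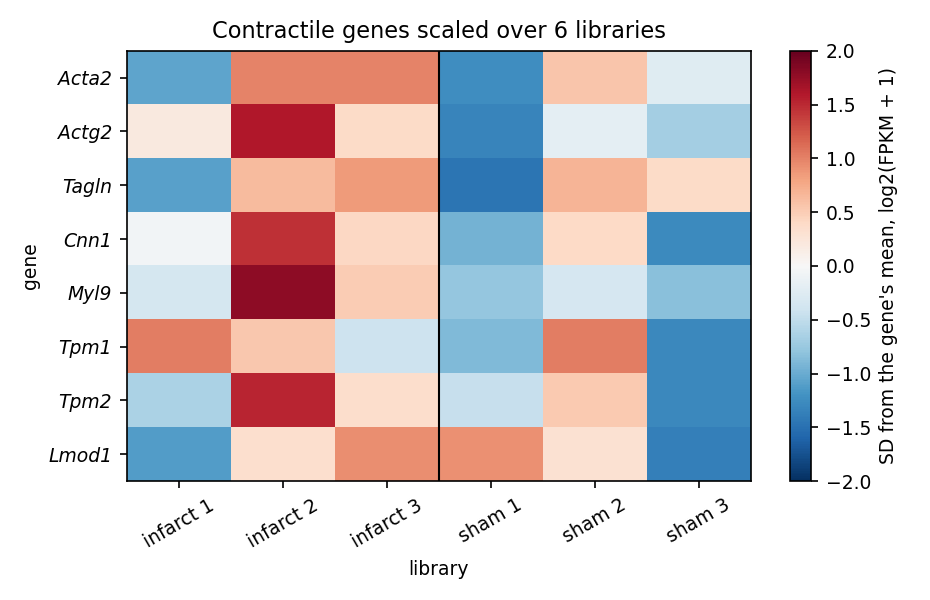
The 8 contractile genes that passed the filter in the 3 infarct libraries (left of the line) and the 3 sham libraries (right of it), each gene scaled to its own mean and SD of log2(FPKM + 1) over the 6 libraries. Infarct library 2 is the highest for Actg2, Cnn1, Myl9 and Tpm2, and the lowest of the 6 libraries is sham library 1 or sham library 3 for all 8 genes.

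Over the 6 libraries, the 5 other genes whose scaled log2(FPKM + 1) values were most like the mean of the 8 contractile genes were Acbd3, Gm30409, Lin37, Pam16 and Tnfrsf12a. Their Pearson r with that mean ran from 0.970 to 0.991. Tnfrsf12a, a receptor gene of the tumour necrosis factor family, was at 97.0, 114.6 and 101.7 FPKM in infarct libraries 1 to 3, against 92.5, 102 and 91.7 FPKM in sham libraries 1 to 3. Acbd3, a gene of a Golgi protein, kept within 24.9 to 27.7 FPKM over all 6. Likeness was ranked over 12712 genes and 6 libraries, so high values of r arise without any relation.

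Among the relatives in the same families, 14 of 22 passed the filter, with a median difference of 0.01, and none was called. Tmod3, which caps the slow-growing end of actin filaments, was the 1 relative whose groups did not overlap, at 42.1, 46.0 and 49.5 FPKM in infarct libraries 1 to 3, against 66.4, 50.1 and 52.4 FPKM in sham libraries 1 to 3. The log2 difference of Tmod3 was -0.28, and 4.1% of all tested genes had infarct below without overlap. Tmod2 had a larger log2 difference of -0.42, at 1.37 ± 0.588 FPKM in infarct and 2.16 ± 0.688 FPKM in sham libraries, and its groups overlapped. The cytoplasmic forms differed little between the groups. Tpm3 was slightly lower in infarct libraries, at 165 ± 3.87 FPKM in infarct and 181 ± 20.6 FPKM in sham libraries. Actg1 was at 770 ± 40.9 FPKM in infarct and 739 ± 98.0 FPKM in sham libraries, Cnn3 at 174 ± 5.26 FPKM in infarct and 165 ± 7.07 FPKM in sham libraries, and Tpm4 at 466 ± 44.2 FPKM in infarct and 443 ± 25.2 FPKM in sham libraries.

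Of 29 other contractile and adhesion genes 27 passed, with a median of 0.03, and none was called by limma. Des encodes desmin, the intermediate filament protein of muscle. It was at 1.97, 8.85 and 1.13 FPKM in infarct libraries 1 to 3, against 0.470, 0.594 and 1.08 FPKM in sham libraries 1 to 3, again with infarct library 2 far above the rest. Its groups did not overlap, its log2 difference was 1.22 with an unadjusted limma p of 0.0572, and the authors' deposited table gives it a q of 0.00178. Synpo2, an actin-bundling protein of the Z-disc, was at 5.30 ± 0.896 FPKM in infarct and 3.59 ± 0.909 FPKM in sham libraries, with an unadjusted limma p of 0.0378. Synm encodes an intermediate filament protein that partners desmin. It was at 0.854, 1.43 and 1.61 FPKM in infarct libraries 1 to 3, against 2.16, 1.93 and 2.48 FPKM in sham libraries 1 to 3, without overlap and with infarct below. Its log2 difference was -0.48 with an unadjusted limma p of 0.0260. Of the 27 genes, only Des had infarct above without overlap, where 3.71% of all tested genes did. Only Synm had infarct below without overlap, where 4.1% of all tested genes did. Cald1, encoding caldesmon, was at 748 ± 153 FPKM in infarct and 705 ± 94.5 FPKM in sham libraries.

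All 18 regulators of these genes passed the filter, with a median of 0.05, and none was called. Mef2c, a muscle transcription factor gene, was at 7.25 ± 3.58 FPKM in infarct and 11.5 ± 3.15 FPKM in sham libraries. Tead1, whose product binds the MCAT element, was at 117 ± 16.3 FPKM in infarct and 111 ± 15.2 FPKM in sham libraries, and Prrx1, a mesenchymal homeobox gene, at 90.5 ± 6.66 FPKM in infarct and 81.3 ± 13.9 FPKM in sham libraries. Of 17 targets of SRF and MRTF none was called, with a median of 0.06. Their immediate early member Fos was at 32.1 ± 11.2 FPKM in infarct and 44.3 ± 7.08 FPKM in sham libraries. Ctgf, a matricellular gene that TGF-beta also induces, was at 761 ± 263 FPKM in infarct and 784.5 ± 132 FPKM in sham libraries. Of 18 myofibroblast genes induced by TGF-beta 17 passed, with a median of 0.05, and none was called. The difference was positive for 10 and negative for 7, from -0.31 for Nox4 to 0.45 for Loxl2. Loxl2, a collagen crosslinking enzyme gene, was at 89.97 ± 25.9 FPKM in infarct and 65.0 ± 15.4 FPKM in sham libraries. Nox4 was at 4.19 ± 0.938 FPKM in infarct and 5.49 ± 1.72 FPKM in sham libraries.

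Markers of vascular smooth muscle and pericytes went in both directions. Of 16 such genes 11 passed the filter, with a median of -0.04 and a range of -0.51 to 1.22, and none was called. The highest was Des, described above, which is also in this list. Des was the 1 gene of the 11 without overlap, with infarct above, where this held for 3.71% of all tested genes. Ndufa4l2, a pericyte marker, was at 19.6 ± 8.21 FPKM in infarct and 13.4 ± 9.42 FPKM in sham libraries. Mcam, an adhesion molecule gene of vessel walls, was at 31.2 ± 9.12 FPKM in infarct and 45.3 ± 15.2 FPKM in sham libraries, and Cspg4, encoding the pericyte proteoglycan NG2, at 3.83 ± 1.84 FPKM in infarct and 5.54 ± 1.61 FPKM in sham libraries. The list summed to 115 to 162 FPKM in infarct and 148 to 153 FPKM in sham libraries, and its part in the levels above was not tested. Higd1b was listed at 0 in all libraries, and Abcc9 and Kcnj8, subunits of a pericyte potassium channel, stayed under 1 FPKM in all 6. Pdgfrb, a receptor gene of pericytes and fibroblasts, was at 47.8 ± 7.92 FPKM in infarct and 43.5 ± 7.08 FPKM in sham libraries.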

How the data were processed

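RNA of 6 samples was sequenced after removal of ribosomal RNA, as directional pairs of reads, per the labels' protocols. Per the submitters' processing notes, Trimmomatic 0.36 was used, and Cuffdiff, Cufflinks, StringTie, HISAT2, SAMtools and the build GRCm38 are named there with no order of steps. The version of the annotation is not given in the sources used here. Values per library are FPKM as deposited by the authors. The p-value and q-value of each gene are also the authors', per the headers of the deposited table. Sham columns were matched to samples by their number. Infarct columns are numbered unlike their samples and were assigned to the group only, so library numbers are those of the columns.

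Rows of 1 symbol were summed (110 symbols), and 14 rows marked as holding too many fragments were left out. The 12720 genes that reached 1 FPKM in 3 or more libraries were fitted with limma 3.58.1 (R 4.3.3) after adding 1 FPKM and taking log2, with a trend on mean level. Tests were two-sided, with Benjamini-Hochberg adjustment over all 12720 and a threshold of 0.05. Folds are ratios of mean FPKM. The test was checked on 20 simulated sets, with genes drawn independently of each other. It recovered 11.6% of changes of 0.5 log2 and 77.3% of changes of 1 log2, and 5.5% of its calls were unchanged genes. The sets also held changes of 2 and 4 log2, in a share of genes fixed in advance, which eases the adjusted threshold. The rates are averages over genes of all spreads. They therefore do not give the power of the test for the contractile genes in these libraries. Steps in the lowest values of genes with 1 transcript implied 20.5 to 28.35 M fragments per library. Fragments per gene were estimated from these and the longest transcript, and cover counting error only. Gene positions, transcripts and overlaps came from GENCODE M21, which held 99.8% of identifiers, and promoters from RefSeq. Coding sequences were taken as the longest open reading frame.

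The 10 genes and all lists were chosen with earlier results of these data known. Eligible to be named were up to 4 genes of each list with the smallest p, its 3 of the highest level, all relatives that passed the filter and the 5 genes most like the members. Myh6, Nppa, Myl7, Abcc9, Kcnj8, Higd1b, Acta1, Actc1 and Lmod2 were named beyond this rule, after their values were seen. Python 3.11.15 with pandas 2.3.3, numpy 2.4.6, Biopython 1.88 and matplotlib 3.10.9 was used. Alternatives were other pseudocounts, filters and scalings, protein-coding genes only, no trend, and leaving out each library.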

Additional observations from a re-analysis of the deposited data

How the results depend on the processing

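None of the 8 contractile genes tested was called under any of the 14 alternatives, with adjusted p from 0.787 for Myl9 upward. Their median difference of 0.20 ran from 0.12 without infarct library 2 to 0.37 without infarct library 1, and from 0.17 to 0.20 under the other 8. The count of all genes called was 3. It was 1 with no filter and 0 with protein-coding genes only, where limma gave 395 genes an unadjusted p under 0.05. When 1 library was left out it was 1 to 14, the 14 being without sham library 1 and the 1 on leaving out sham library 2 or either of infarct libraries 1 and 2. The count of contractile genes whose groups do not overlap was 1. It was 0 with a filter of 5 FPKM, which removes Actg2, and 2 with quantile normalization. When 1 library was left out it was 1 to 4, the 4 being without sham library 2 or infarct library 1. Leaving out a library can add to this count but cannot lower it. The share of all genes without overlap was not worked out for these fits. Tagln went from -0.15 to 0.33 and Lmod1 from -0.19 to 0.23 when 1 library was left out. Both turned negative in some of these fits, Tagln at -0.15 without sham library 1 and -0.04 without infarct library 3, and Lmod1 at -0.19 without sham library 3, -0.01 without infarct library 2 and -0.11 without infarct library 3. The cause was not tested. Actg2 ran from 0.91 to 1.54, Cnn1 from 0.58 to 1.25 and Myl9 from 0.32 to 0.79 on leaving out 1 library, the lowest of each being without infarct library 2. Myocd, at -0.16 on the log2(FPKM + 1) scale, was at -0.61 with a pseudocount of 0.1 FPKM and -0.85 with 0.01 FPKM. No scaling moved the median of all genes by more than 0.0145. No paired analysis was possible because the infarct columns carry no number of the infarct samples and nothing in the labels pairs the groups. Precision is limited by 3 libraries a group, and for Myocd by few fragments.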
